A study of Caenorhabditis elegans with 79 samples.

Results

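The 6 GFP::RDE-1 co-immunoprecipitates (co-IPs) described here were made from Caenorhabditis elegans fed bacteria with a dcr-1 RNAi clone or with the empty vector L4440, with 3 libraries in each group. They are 6 of the 79 libraries and 2 of the 29 groups that the labels name, and were chosen by their labels alone. The study profiled small RNAs of lysates and of Argonaute co-IPs to ask how RNA-binding proteins feed small RNAs into Argonautes. The animals were gravid adult hermaphrodites, collected whole after 68 or 72 h of growth at 20 °C from synchronised first-stage larvae; the labels give both times. All of them, in the dcr-1 RNAi and in the L4440 groups, carried a GFP, loxP and 3xFLAG tag on rde-1 (allele cmp133) and a 2xFLAG tag on rde-4 (allele cmp320). Both tags sit at the genes' own loci, so neither gene was deleted in any of these animals. The matched lysates before immunoprecipitation, called inputs, came as 3 libraries for each feeding and serve as the background. The labels name no separate cultures for the replicates, so p-values measure only the spread between these libraries, which may be technical.

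RDE-1 is an Argonaute, a protein that carries a small RNA and uses it to find matching transcripts. In C. elegans the RNase III enzyme Dicer, encoded by dcr-1, cuts long double-stranded RNA into short duplexes, and together with the double-stranded RNA-binding protein RDE-4 it hands these primary siRNAs to RDE-1. Dicer also cuts the hairpin precursors of miRNAs. Feeding dcr-1 double-stranded RNA thus makes Dicer substrate and Dicer target the same gene. Primary siRNAs and the duplexes cut from endogenous hairpins appear in the tables as 23H-RNAs, sequences of 21 to 24 nt of which most begin with a base other than G. Secondary siRNAs, called 22G-RNAs, are made later by RNA-dependent RNA polymerases and carry a 5′ triphosphate. The libraries were made without the enzyme RppH that opens that end to ligation, per the labels, and such ends ligate poorly without it. Small RNA libraries do not give the level of dcr-1 mRNA or protein, so the strength of the knockdown was not measured.

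Most of the endogenous 23H-RNA signal came from 3 sources: the gene F43E2.6, the mir-5592 locus and a hairpin on chromosome IV. The products on which the results turn are shown here because both strands of single Dicer-type duplexes could be followed. Capitals mark the last 2 bases, and strands are listed 5′ to 3′. In the first 4 pairs the capitals are the unpaired 3′ overhangs, since the other 21 bases of one strand pair with the other strand; the last 3 products are shown singly.
Chromosome IV hairpin, duplex 1, strand a: atggctgcggcgaggatgatgTG
Chromosome IV hairpin, duplex 1, strand b: catcatcctcgccgcagccatCG
Chromosome IV hairpin, duplex 2, strand a: cgatggctgcggcgaggatgaTG
Chromosome IV hairpin, duplex 2, strand b: tcatcctcgccgcagccatcgTC
F43E2.6, duplex 3, strand a: catctcagaaacatcggcaaaTG
F43E2.6, duplex 3, strand b: tttgccgatgtttctgagatgTC
mir-5592, duplex 4, strand a: cggcccttaccgtttaatacaTG
mir-5592, duplex 4, strand b: tgtattaaacggtaagggccgGC
Chromosome IV hairpin, main product: agtggagtggatgacgacgacGA
F43E2.6, shifted product: tgccgatgtttctgagatgtcTT
mir-5592, upstream product: catgtattaaacggtaagggCC
Duplexes 1 and 2 are the same stretch of the hairpin cut 2 bases apart. In the Ensembl annotation of WBcel235, the chromosome IV hairpin is a snoRNA gene (WBGene00220185) at IV:14780839-14780933 on the plus strand and F43E2.6 is a protein-coding gene at II:7366455-7368861 on the minus strand. The same annotation has mir-5592 as a pair of overlapping miRNA genes on opposite strands, at X:13759245-13759308 (minus) and X:13759247-13759310 (plus). dcr-1 lies at III:8071967-8080281 on the minus strand. The build that the authors mapped to is not given in the sources used here, so these positions place the named genes and not the single products.

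The depth inferred from the smallest steps of the piRNA values was 21.5 to 37.3 M reads in 11 of the 12 libraries; for replicate 2 of the L4440 co-IPs the values gave no clear step. Values are RPM, reads scaled to the depth of each library, and a floor of 3 reads was worth 0.0805 to 0.140 RPM, for counting error only. L4440 co-IP replicate 1 stood apart from the other 2 L4440 co-IPs for several 23H-RNAs, and counts without it are given below. The labelled stage was checked with markers: the mir-35 family, abundant in embryos and the adult germline, summed to 164816, 172408 and 173023 RPM in the dcr-1 RNAi co-IPs, against 159406, 122423 and 110540 RPM in the L4440 co-IPs. piRNAs, which mark the germline, summed to 22292, 19699 and 17029 RPM, against 13124, 16326 and 17919 RPM. The ALG class 26G-RNAs, made during spermatogenesis, summed to 216, 273 and 248 RPM in the dcr-1 RNAi co-IPs and to 355, 458 and 280 RPM in the L4440 co-IPs, with no overlap. In the inputs, piRNAs summed to 254146 to 267471 RPM after dcr-1 RNAi and to 166920 to 222539 RPM on L4440. The mir-35 family overlapped there, at 31666 to 35623 RPM and 28111 to 34702 RPM. The let-7 family, a marker of late larvae and adults, overlapped too, at 17297 to 17508 RPM and 16215 to 20886 RPM. The ERGO class 26G-RNAs, made in oocytes and embryos, were apart, at 3484 to 3713 RPM and 2037 to 2937 RPM. ALG class 26G-RNAs were apart as well, at 225 to 239 RPM and 270 to 451 RPM. Fewer cells of a type and less RNA per cell cannot be told apart in whole animals, and the part of these differences in the results was not tested.

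The first question is whether siRNAs of the fed gene reached RDE-1. Primary dcr-1 siRNAs (the dcr-1 23H row) had 15977, 12782 and 18044 RPM in the dcr-1 RNAi co-IPs, against 1.45, 2.18 and 2.34 RPM in the L4440 co-IPs. All 3 dcr-1 RNAi libraries were high and all 3 L4440 libraries near 0, and the ratio of the group means was 7840. On the log2(RPM + 1) scale, where adding 1 shrinks the change of low rows, the difference was 12.35 ± 0.20 (SE, n = 3 each; limma, Benjamini-Hochberg adjusted p = 2.4e-31). In the inputs the same row had 1664, 1529 and 1729 RPM after dcr-1 RNAi, against 3.55, 2.85 and 3.91 RPM on L4440. The co-IP held 9.51 times the input level after dcr-1 RNAi, and the difference between co-IP and input contrasts was 3.81 on the log2 scale (limma, adjusted p = 1.8e-11).

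The dcr-1 rows classed as 22G-RNAs had far lower values in the co-IP. Without RppH 5′ triphosphate ends ligate poorly, so these values cannot be set against those of the primary siRNAs. The dcr-1 22G row had 33.9, 28.9 and 39.3 RPM in the dcr-1 RNAi co-IPs, against 0, 0.21 and 0.11 RPM in the L4440 co-IPs. A further dcr-1 row in the CSR class 22G-RNAs (the class bound by the Argonaute CSR-1) had 72.7, 74.7 and 81.5 RPM, against 0.04, 0 and 0.14 RPM. Both rose, by 4.98 ± 0.24 and 6.19 ± 0.24 on the log2 scale (SE, limma, adjusted p = 4.1e-17 and 1.6e-19), and in neither did any libraries of the groups overlap. The 2 rows differed in how they stood to their inputs after dcr-1 RNAi. The dcr-1 22G row averaged 34.0 RPM in the co-IPs and 51.8 RPM in the inputs (log2 difference -0.60, limma, adjusted p = 0.017), while the CSR class row averaged 76.3 RPM in the co-IPs and 52.8 RPM in the inputs (0.52, limma, adjusted p = 0.040). For the dcr-1 22G row the difference of co-IP and input contrasts did not pass the test (0.20, limma, adjusted p = 0.81), and neither did that of the CSR class row (0.75, adjusted p = 0.27). The size of these log2 differences depends on the pseudocount, since the L4440 values lie near the floor.

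**Figure D1:**
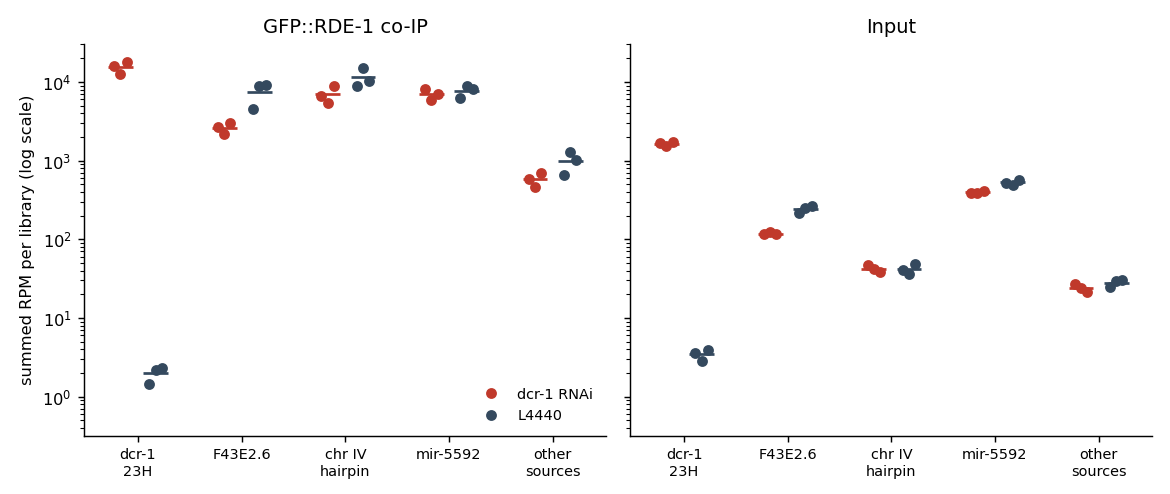
Summed RPM of dcr-1 23H siRNAs and of endogenous 23H-RNAs by source in each library, on a log axis, for the GFP::RDE-1 co-IPs and the inputs; points are libraries and lines are means of 3, dcr-1 RNAi left of L4440. dcr-1 siRNAs reached 12782 to 18044 RPM in the dcr-1 RNAi co-IPs, and F43E2.6 products lay lower there than in every L4440 co-IP.

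Beside the dcr-1 siRNAs, the endogenous 23H-RNAs in RDE-1 were lower. Their 1194 rows summed to 17939, 13827 and 19642 RPM in the dcr-1 RNAi co-IPs, against 20257, 34306 and 28652 RPM in the L4440 co-IPs. The groups did not overlap, and the dcr-1 RNAi mean was 0.618 times the L4440 mean. An exact two-sided permutation test gave p = 0.1, and no smaller p is possible with 3 libraries in each group. In the inputs the sum was 594 to 602 RPM after dcr-1 RNAi and 825 to 928 RPM on L4440, a ratio of 0.694. Adding the dcr-1 siRNAs gave 33915, 26609 and 37686 RPM in the dcr-1 RNAi co-IPs and 20258, 34308 and 28654 RPM in the L4440 co-IPs, which overlap (exact permutation p = 0.5). dcr-1 siRNAs made up 47.1%, 48% and 47.9% of all 23H reads in the dcr-1 RNAi co-IPs, against 0.0064% to 0.0082% in the L4440 co-IPs. In the dcr-1 RNAi inputs they made up 72.0% to 74.2%, a larger share than in the co-IPs made from them.

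Row by row, 54 of the 1194 endogenous 23H-RNAs passed the minimum mean of 10 RPM over the 12 libraries, and they held 95.2% to 96.4% of the 23H sum in the co-IPs. A row with inputs near 0 passes that minimum through its co-IP values alone. Some rows, such as both strands of duplex 1, passed mainly through the L4440 co-IPs, where they are high. Falls are thus favoured among the 54 rows, and their counts and medians, also by source, carry that choice. Of these 54, 36 fell, 2 rose and 16 did not pass the test (limma, adjusted p under 0.05), with a median log2 difference of -1.02. Over all 2516 tested rows, 22.5% were called, with 3.74% lower, 18.8% higher and a median of 0.26. Of these rows 2216 are piRNAs, so shares over all tested rows, here and below, are mostly those of piRNAs. The tested 23H-RNA rows ran against that direction. Of the 164 tested miRNA rows, 52 rose and 21 fell, with a median of 0.19. In 35 of the 54 rows every dcr-1 RNAi co-IP lay below every L4440 co-IP, in 4 above, and 15 overlapped; over all tested rows 4.81% lay below and 24.3% above. Without L4440 co-IP replicate 1, 37 fell. With median-of-ratios scaling, which moves the median of all rows to 0.02, 43 fell and the median was -1.42. With the dcr-1 rows left out of the totals, 36 fell. With no minimum level, 78 of 1194 fell and 22 of the 38 calls were lost, at a median of -0.03 over the 1194.

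The sources differed. The 14 tested F43E2.6 rows fell in 13 cases, with a median of -1.59, and their inputs were lower as well, with a median of -0.77 and 3 rows called, where 0.994% of all tested rows were called lower. The 16 chromosome IV hairpin rows fell in 12 cases, with a median of -1.54, and none was called in the inputs, at an input median of -0.05. That input median carries little information, because 14 of the 16 rows had under 1 RPM in the inputs. Of the 17 mir-5592 rows, 7 fell and 2 rose, with a median of -0.17 in the co-IPs and -0.38 in the inputs. The remaining 7 rows, from other sources, fell in 4 cases.

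**Figure D2:**
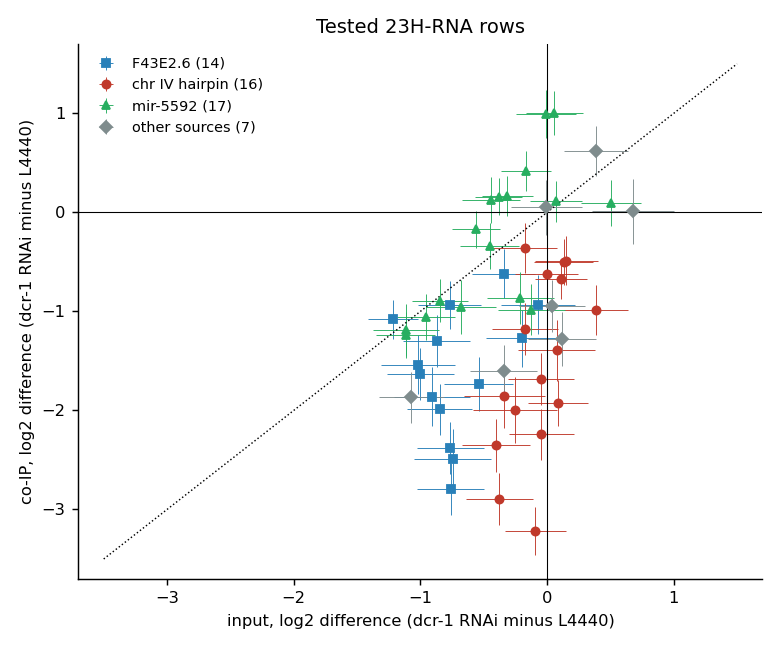
Log2 difference (dcr-1 RNAi minus L4440, on the log2(RPM + 1) scale) of the 54 tested 23H-RNA rows in the co-IPs against that in the inputs, with SE bars, by source; the dotted line marks equal differences. Rows of the chromosome IV hairpin lie below the line with inputs near 0, where most of them had under 1 RPM, while mir-5592 rows lie mostly along it or above it.

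Summed by source, F43E2.6 products had 2637, 2170 and 3000 RPM in the dcr-1 RNAi co-IPs, against 4563, 8980 and 9072 RPM in the L4440 co-IPs. The groups were apart, at 0.345 times the L4440 mean (exact permutation p = 0.1, the smallest possible), and the inputs were apart too, at 0.483 times. The products of the chromosome IV hairpin had 6609, 5346 and 8901 RPM, against 8801, 15189 and 10421 RPM. dcr-1 RNAi replicate 3 lay above L4440 replicate 1, so these sums overlap (ratio 0.606, exact permutation p = 0.2), and the input ratio was 1.02. mir-5592 products had 8097, 5841 and 7028 RPM, against 6207, 8839 and 8126 RPM, and overlapped throughout (ratio 0.905, exact permutation p = 0.5). As shares of the endogenous 23H sum, mir-5592 had 45.1%, 42.2% and 35.8% after dcr-1 RNAi, against 30.6%, 25.8% and 28.4% on L4440. F43E2.6 had 14.7%, 15.7% and 15.3%, against 22.5%, 26.2% and 31.7%. Neither pair of shares overlapped (exact permutation p = 0.1 for each, the smallest possible).

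The co-IP concentrated the sources unequally in both feedings. The co-IP mean over the input mean was 164 after dcr-1 RNAi and 274 on L4440 for the chromosome IV hairpin, 22.1 and 30.9 for F43E2.6, and 17.6 and 14.6 for mir-5592. The dcr-1 siRNAs, at 9.51, were the least concentrated of the 4. Of the 179 source names, 21 had at least 10 RPM over the co-IPs: 8 were lower without overlap, 3 were higher without overlap and 10 overlapped. Over all tested rows, which are single rows and not sums, 4.81% lay lower and 24.3% higher without overlap. The 3 higher sources are therefore no result about these sources. ChrIII_hairpin1 had 33.3, 26.9 and 36.2 RPM in the dcr-1 RNAi co-IPs, against 84.9, 160 and 122 RPM in the L4440 co-IPs, and rncs-1, a long noncoding hairpin RNA that Dicer binds, had 33.2, 28.4 and 42.7 RPM, against 44.1, 74.3 and 71.6 RPM. Both were apart. E01G4.7 went the other way, with 36.5, 27.2 and 25.5 RPM, against 7.43, 14.4 and 13.0 RPM. These source names were singled out after their values were seen. rRNA-derived 23H-RNAs, from 60 rows, stayed at 12.1 to 20.4 RPM after dcr-1 RNAi, against 18.8 to 25.8 RPM on L4440, and overlapped.

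Both strands of the chromosome IV hairpin duplexes fell together. Strand b of duplex 1 had 10.2, 7.36 and 11.7 RPM in the dcr-1 RNAi co-IPs, against 78.9, 118 and 97.9 RPM in the L4440 co-IPs. Strand a had 5.63, 3.79 and 6.69 RPM, against 30.2, 73.6 and 42.1 RPM. The groups were far apart for both strands, at log2 differences of -3.21 ± 0.24 and -2.89 ± 0.26 (SE, limma, adjusted p = 1.2e-11 and 1.3e-09), the lowest of the 54. Both strands passed the minimum for a test mainly through their L4440 co-IP values. In duplex 2, cut 2 bases away, strand a fell by 1.92 and strand b by 2.24 on the log2 scale (limma, adjusted p = 3.6e-07 and 1.0e-07). All 4 strands had 0 to 0.46 RPM in every input. Strand a of duplex 1 had 0, 0 and 0.27 RPM in the dcr-1 RNAi inputs, against 0.34, 0.42 and 0.46 RPM in the L4440 inputs. These were apart, but the difference did not pass the test (limma, adjusted p = 0.27). The other strands were mostly at or near the floor, so what the lysates held of them cannot be compared. The main product of the chromosome IV hairpin is far more abundant: it had 5041, 4140 and 6859 RPM, against 6666, 11281 and 7691 RPM. Its dcr-1 RNAi replicate 3 lay just above L4440 replicate 1, and it fell by only 0.67 ± 0.21 (SE, limma, adjusted p = 0.017). That call was lost, with adjusted p from 0.069 to 0.15, without dcr-1 RNAi co-IP replicate 1, without dcr-1 RNAi co-IP replicate 2 and without L4440 co-IP replicate 2, and also with the co-IP libraries fitted alone and with no minimum level. Its inputs, at 25.2 to 31.3 RPM after dcr-1 RNAi and 21.8 to 29.1 RPM on L4440, overlapped.

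Both strands of the F43E2.6 duplex fell in the lysate as well as in the co-IP. Strand a had 1061, 857 and 1341 RPM in the dcr-1 RNAi co-IPs, against 2095, 2846 and 1932 RPM in the L4440 co-IPs, and 35.5, 32.3 and 29.0 RPM in the dcr-1 RNAi inputs, against 73.9, 67.8 and 88.5 RPM in the L4440 inputs. Both fractions were apart, with log2 differences of -1.08 ± 0.20 in the co-IPs and -1.22 in the inputs (limma, adjusted p = 1.8e-04 and 2.0e-04). Strand b had 1134, 935 and 1115 RPM, against 1548, 4293 and 5339 RPM, with L4440 replicate 1 nearer to the dcr-1 RNAi libraries than to the other L4440 libraries. It fell by 1.64 in the co-IPs and by 1.0 in the inputs (limma, adjusted p = 3.1e-05 and 0.025). The shifted product, which starts 2 bases further into strand b, had 27.8, 31.0 and 47.3 RPM in the dcr-1 RNAi co-IPs, against 147, 327 and 305 RPM in the L4440 co-IPs. It fell by 2.79 in the co-IPs (limma, adjusted p = 2.5e-09). Its inputs had 1.64, 1.96 and 2.01 RPM, against 3.21, 4.30 and 4.13 RPM, and the difference of co-IP and input contrasts was -2.03 (limma, adjusted p = 0.0020).

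In mir-5592 the strands and their ends went separate ways. Strand b of duplex 4, the most abundant mir-5592 product, had 4331, 2901 and 3443 RPM in the dcr-1 RNAi co-IPs, against 2995, 4682 and 4415 RPM in the L4440 co-IPs, and overlapped (log2 difference -0.17, limma, adjusted p = 0.56). Strand a had 715, 642 and 706 RPM, against 467, 455 and 640 RPM. Its libraries did not overlap, by a narrow margin, and its difference of 0.42 did not pass the test (limma, adjusted p = 0.13). The 22-nt form of strand a, 1 base shorter at the 3′ end, had 328, 329 and 254 RPM, against 127, 134 and 201 RPM, and rose by 0.99 ± 0.24 (SE, limma, adjusted p = 0.0028). The 21-nt form, at 38.9, 37.9 and 40.2 RPM, against 17.1, 17.9 and 22.2 RPM, rose by 1.0 ± 0.22 (SE, limma, adjusted p = 0.0013). In the inputs none of the 3 forms was called. The upstream product, which starts 2 bases before strand b, had 340, 258 and 439 RPM, against 558, 826 and 536 RPM. It fell by 0.89 in the co-IPs, without overlap, and by 0.84 in the inputs (limma, adjusted p = 0.0036 and 0.025).

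Length went with the size of the difference among the 54 rows. The median log2 difference was -0.13 for the 6 rows of 21 nt, -0.89 for the 15 of 22 nt, -1.26 for the 28 of 23 nt and -1.27 for the 5 of 24 nt. Rows of one source share their precursor, so these are descriptions and not independent points. The length groups also differ in source: most rows of 21 nt are from mir-5592, whose median was -0.17. Length and source are thus mixed in these medians. Among products with the same 5′ end, the table holds 22 pairs that differ by 1 base at the 3′ end, from 12 such ends, and the longer one had the lower log2 difference in 18 of them, with a median of -0.21 between longer and shorter. In the inputs the longer one was lower in 15 of the same 22 pairs, with a median of -0.09, though 22 of the 54 rows had under 1 RPM there. The co-IP and input trends were not tested against each other. For the main product of the chromosome IV hairpin the values ran -0.36, -0.50, -0.67 and -0.99 from 21 to 24 nt. For mir-5592 strand a they ran 1.0, 0.99 and 0.42 from 21 to 23 nt. By first base, 10 of 14 rows beginning with A, 13 of 17 with C and 13 of 21 with T fell, and neither of the 2 beginning with G. The length comparison was made after values had been seen.

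**Figure D3:**
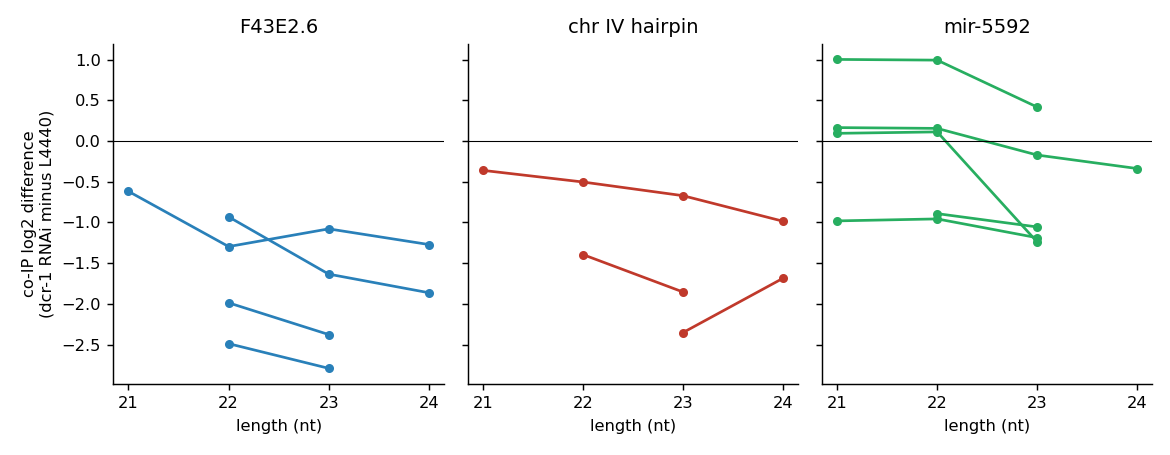
Co-IP log2 difference (dcr-1 RNAi minus L4440) against length in nt, with lines joining 23H-RNA rows that share a 5′ end, for the 3 main sources. Most lines run down with length: in 18 of 22 steps of 1 base the longer form had the lower difference.

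miRNAs filled most of each co-IP: 92.9%, 93.9% and 92.6% of the summed RPM in the dcr-1 RNAi co-IPs, against 95.5%, 93.0% and 93.8% in the L4440 co-IPs, with no call (exact permutation p = 0.3). In the inputs they made up 61.7%, 58.9% and 59.4% after dcr-1 RNAi, against 73.9%, 67.3% and 67.7% on L4440, without overlap. The summed miRNA inputs were 408778 to 438838 RPM, against 455598 to 496186 RPM. What lowered them was not tested. Of 164 tested miRNA rows, 52 rose and 21 fell, with a median of 0.19, where 18.8% of all tested rows were called higher and 3.74% lower. To find miRNAs that RDE-1 binds, a list was taken from the separate GFP::RDE-1 table under nrfl-1 RNAi, where 41 miRNA rows were enriched over input, 34 of them tested here. Of these 34, 5 rose, a share near that of all rows, and 8 fell, with a median of -0.13, while of the 130 rows off the list 47 rose and 13 fell, with a median of 0.31. The miRNA rows enriched in the GFP::RDE-1 table under nrfl-1 and oma-1 RNAi make a wider list, of which 98 rows were tested, 23 rose and 14 fell, with a median of 0.13. The direction of the list's median thus depends on which table defines it. Under median-of-ratios scaling the median of all miRNA rows was -0.22, so their direction depends on scaling too.

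The most abundant miRNA of the co-IPs, miR-58a-3p, had 139505, 159817 and 156497 RPM in the dcr-1 RNAi co-IPs, against 142689, 212188 and 257701 RPM in the L4440 co-IPs. It overlapped and was not called (log2 difference -0.39, limma, adjusted p = 0.098), though it was without L4440 co-IP replicate 1 (-0.62, adjusted p = 2.0e-04). Among the 8 most abundant miRNAs of the RDE-1 list, miR-80-3p was the only one called, with 46612, 47578 and 35117 RPM, against 35412, 29440 and 26624 RPM (0.50, limma, adjusted p = 0.022). Its highest L4440 library lay just above its lowest dcr-1 RNAi library, and the difference was 0.08 under median-of-ratios scaling and not called. The call was also lost, at adjusted p from 0.063 to 0.12, without dcr-1 RNAi co-IP replicate 1, dcr-1 RNAi co-IP replicate 2 or L4440 co-IP replicate 2. miR-81-3p, miR-64-5p, miR-65-5p, miR-51-5p, miR-40-3p, lin-4-5p and miR-56-3p had differences of -0.26, -0.19, 0.14, 0.13, 0.20, 0.35 and -0.10 and were not called. miR-243-3p, a miRNA known in C. elegans to act with RDE-1 and to start 22G-RNA synthesis on Y47H10A.5, had 235, 171 and 296 RPM, against 356, 613 and 551 RPM. It was apart between the groups and fell by 1.11 in the co-IPs and by 1.0 in the inputs (limma, adjusted p = 0.0025 and 0.025), and its co-IP call was lost with no minimum level (adjusted p = 0.25). miR-789-3p, listed as 2 identical rows for its 2 genes, had 335, 311 and 308 RPM, against 762, 814 and 1206 RPM, and fell by 1.51 in the co-IPs and by 1.22 in the inputs (limma, adjusted p = 5.8e-06 and 6.0e-04). The 22G-RNA row of Y47H10A.5 was at 1.91, 1.65 and 2.36 RPM, against 1.32, 1.24 and 1.55 RPM, under the minimum for a test.

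miRNAs were also compared by arm. Each hairpin yields a pair of strands, and the arm that was less abundant in the wild-type inputs of the nrfl-1 RNAi table is called the minor arm; the split was made after values had been seen. Of 186 minor arms of the split, 50 reached the minimum for a test. Some scarce ones, such as miR-38-5p, did so mainly through dcr-1 RNAi libraries, where they are high, which favours rises. miR-358-5p did so mainly through the L4440 co-IPs. The counts and medians, also by family, carry that choice. Of the 50 tested minor arms, 25 rose and 8 fell in the co-IPs, with a median of 0.61, against 18.8% higher and 3.74% lower over all tested rows. In the inputs 12 rose and 4 fell, with a median of 0.44, where 2.78% of all tested rows were called higher. Of 105 major arms, 27 rose and 12 fell in the co-IPs, with a median of 0.16, and 1 rose and 11 fell in the inputs, with a median of 0.00. Under median-of-ratios scaling 19 minor arms rose and 10 fell, with a median of 0.24, while the median of the major arms turned to -0.26. The summed level of the minor arms went the other way from their median, with 7328, 7593 and 6990 RPM in the dcr-1 RNAi co-IPs, against 8935, 8601 and 8592 RPM in the L4440 co-IPs, and the sums did not overlap. The most abundant of them, miR-41-3p, had 1078, 1971 and 1415 RPM, against 4586, 4214 and 3361 RPM, and fell by 1.48 (limma, adjusted p = 6.3e-06), with 1243 to 1742 RPM in the dcr-1 RNAi inputs and 1117 to 2075 RPM in the L4440 inputs. That row lost more RPM than the whole sum did, so the lower sum rests on it. The other minor arms together were not lower. miR-41-3p counts as a minor arm only by the inputs of the nrfl-1 RNAi table.

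**Figure D4:**
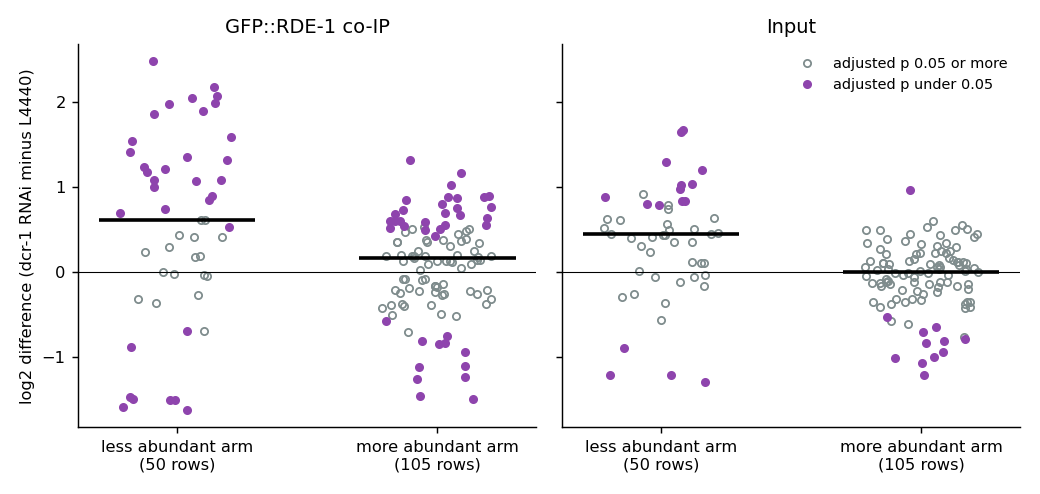
Log2 difference (dcr-1 RNAi minus L4440) of each tested miRNA row in the co-IPs and in the inputs, by arm; filled points have an adjusted p under 0.05 (limma) and bars are medians, with horizontal scatter for display only. The median of the 50 minor arms was 0.61 in the co-IPs and 0.44 in the inputs, and that of the 105 major arms was 0.16 and 0.00.

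Minor arms rose in 3 large families, in the co-IPs and in part in the inputs. In the mir-35 family, which acts in embryos, 6 of 8 minor arms rose and 1 fell, with a median of 1.14, and 2 of 7 major arms rose, with a median of 0.37 that is -0.05 under median-of-ratios scaling. The 1 that fell is miR-41-3p, a minor arm only by the split in the nrfl-1 RNAi table. It had 1078 RPM or more in every co-IP, so it is no example of a scarce strand. Of the 8 major arms listed by that split, 7 reached the minimum for a test. In the inputs 5 of the 8 minor arms rose, with a median of 0.94, and the median difference of enrichment was 0.01. miR-39-5p had 104, 59.4 and 72.2 RPM in the dcr-1 RNAi co-IPs, against 15.4, 13.2 and 27.7 RPM in the L4440 co-IPs (2.04, limma, adjusted p = 1.1e-07). Its major arm miR-39-3p had 19827, 21884 and 19929 RPM, against 14707, 10934 and 12051 RPM (0.72, limma, adjusted p = 0.0014). In both arms the groups were apart, but under median-of-ratios scaling miR-39-3p had 0.31 and was not called (adjusted p = 0.40). In the mir-51 family 4 of 5 minor arms rose and none of 6 major arms was called, while in the inputs 1 minor arm rose, with a median of 0.45. miR-54-5p had 161, 144 and 159 RPM, against 30.0, 44.0 and 35.1 RPM (2.07, limma, adjusted p = 2.4e-09), and miR-52-3p had 250, 210 and 186 RPM, against 48, 66.0 and 58.7 RPM (1.89, limma, adjusted p = 1.2e-08). In the mir-58 family 3 of 4 minor arms rose, 2 of the 4 rose in the inputs, with a median of 0.70 there, and miR-58a-5p gave the highest difference of all miRNA rows. It had 469, 554 and 517 RPM, against 100, 99.0 and 76.7 RPM, a log2 difference of 2.47 ± 0.19 (SE, limma, adjusted p = 2.0e-11). Its inputs had 131, 140 and 108 RPM, against 40.0, 42.6 and 35.8 RPM, and rose by 1.65 (limma, adjusted p = 5.8e-07). The co-IP medians of these 3 sets of minor arms stayed above 0 under the 4 scalings run.

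Not every minor arm rose. miR-238-5p had 30.6, 39.9 and 54.9 RPM in the dcr-1 RNAi co-IPs, against 70.6, 152 and 194 RPM in the L4440 co-IPs, and fell by 1.63 (limma, adjusted p = 6.2e-05), while its inputs had 23.9 to 24.9 RPM, against 13.0 to 22.0 RPM. miR-358-5p had 10.5, 9.10 and 9.58 RPM, against 14.3, 35.3 and 60.1 RPM, and fell by 1.60 (limma, adjusted p = 4.1e-04), with all inputs under 1 RPM. In both, L4440 co-IP replicate 1 was the nearest to the dcr-1 RNAi libraries, and with no minimum level neither was called (adjusted p = 0.086 and 0.18). miR-239a-3p rose by 2.18, at 31.7, 31.6 and 22.2 RPM, against 4.19, 5.66 and 6.73 RPM (limma, adjusted p = 1.3e-08). The let-7 family, which times late larval development, had 2 of 6 rows higher and 1 lower. The lin-4 and mir-64 families had no call in 2 and 7 rows, by limma with adjustment; the count of all tested rows at an unadjusted p under 0.05 was 880. The mir-2 family had 1 of 5 rows higher and the mir-72 family 1 of 4 lower. With 18.8% of all rows called higher and 3.74% lower, these counts of 1 or 2 rows are no result about the let-7, mir-2 and mir-72 families.

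**Figure D5:**
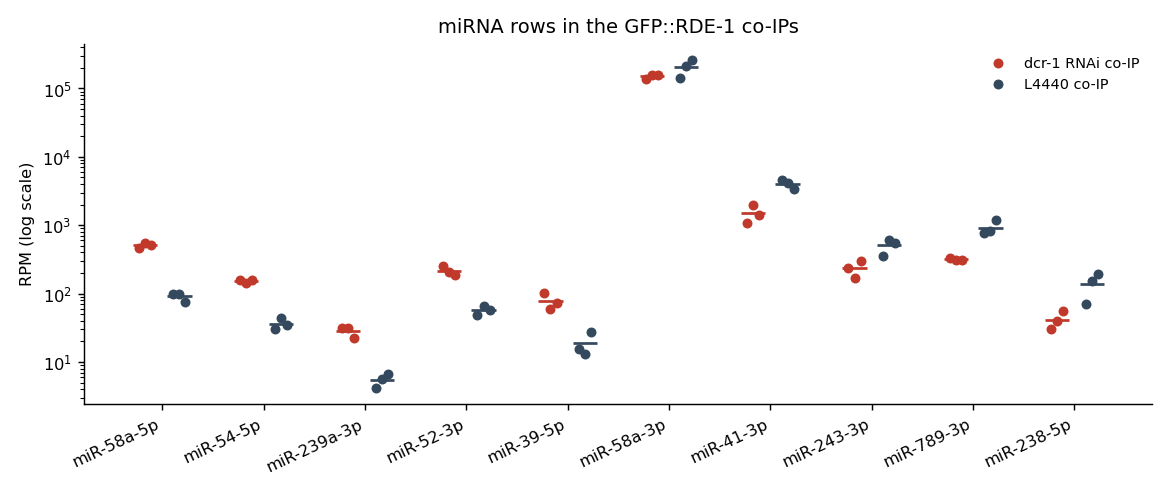
RPM of 10 miRNA rows in each co-IP library on a log axis, with dcr-1 RNAi left of L4440; points are libraries and lines are means of 3. The first 5 rows rose without overlap, miR-58a-3p overlapped, and the last 4 fell without overlap.

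Among the 26G-RNA and 22G-RNA classes few rows passed the test in the co-IPs. With 18.8% of all tested rows called higher there, the counts of risen rows below are no result about these classes. Of 37 tested ERGO class 26G-RNAs, made in oocytes and embryos, 2 rose: C40A11.10, with 515, 543 and 518 RPM in the dcr-1 RNAi co-IPs, against 185, 310 and 225 RPM in the L4440 co-IPs (1.16, limma, adjusted p = 1.8e-04), and T16A1.9, with 231, 264 and 251 RPM, against 110, 187 and 125 RPM (0.86, limma, adjusted p = 0.0032). Both were higher in the inputs too, by 0.73 and 0.77. Under median-of-ratios scaling T16A1.9 had 0.44 and was not called (adjusted p = 0.14), and with no minimum level neither row was. Of 31 CSR class 22G-RNAs, 3 rose, of which 1 is dcr-1 and the others are hcp-1, a kinetochore protein gene, and klp-10, a kinesin-like gene. hcp-1 had 9.34, 10.3 and 13.7 RPM, against 4.8, 5.85 and 6.20 RPM (0.86, limma, adjusted p = 0.0086), and klp-10 had 4.11, 6.23 and 4.99 RPM, against 1.95, 2.88 and 3.42 RPM (0.71, limma, adjusted p = 0.044). Their inputs were higher by 0.91 and 1.11, and 20 of the 31 rows rose in the inputs, where 3.78% of all rows were called. Some rows, such as klp-10, reached the minimum for a test mainly through the dcr-1 RNAi inputs, where they are high. Rises in the inputs are thus favoured in that count. The hcp-1 call was lost under median-of-ratios scaling (0.50, adjusted p = 0.11), with the co-IP libraries fitted alone (adjusted p = 0.056) and with no minimum level (adjusted p = 0.077). The klp-10 call was lost under the same 3 settings (adjusted p from 0.15 to 0.37) and with a pseudocount of 10 RPM (adjusted p = 0.33). It was also lost without any 1 of the 3 dcr-1 RNAi co-IPs or without L4440 co-IP replicate 1 or 2, at adjusted p from 0.053 to 0.18. Summed over all its rows the CSR class had 1521, 1526 and 2015 RPM in the dcr-1 RNAi co-IPs, against 1077, 1269 and 1153 RPM in the L4440 co-IPs, with no overlap (exact permutation p = 0.1, the smallest possible). In the inputs it had 7787, 9226 and 10220 RPM, against 3466, 4173 and 6185 RPM. None of 8 WAGO class 22G-RNAs, bound by worm-specific Argonautes, passed the test by limma with adjustment.

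Of 60 genes of RNAi pathways, 42 had a 22G-RNA row and 4 were tested, in 5 rows. Both dcr-1 rows rose, and ppw-2 and wago-4 (Argonaute genes) and prg-1 (the piRNA-binding Argonaute) were not called in the co-IPs, at 0.51, -0.02 and 0.56. All 5 rows rose in the inputs, with ppw-2 at 1.06, wago-4 at 1.17 and prg-1 at 1.17, where 2.78% of all tested rows and 20 of the 31 CSR class rows were called higher. They were 5 of 48 such rows. All 5 reached the minimum for a test mainly through dcr-1 RNAi libraries, where they are high. Rises in the inputs are thus favoured by that choice. rde-1 itself had 0.23, 0.40 and 0.47 RPM as a CSR class row in the dcr-1 RNAi co-IPs, against 0.22, 0 and 0.08 RPM in the L4440 co-IPs, too low to test.

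Among 2216 piRNAs, which load into PRG-1 rather than RDE-1, 411 rose and 37 fell, with a median of 0.28. Under median-of-ratios scaling 169 rose and 145 fell, with a median of 0.04. piRNAs are 2216 of the 2516 tested rows, so that scaling sets their median near 0 by construction. It therefore cannot test their direction. Over all 2516 rows 566 were called, 472 higher and 94 lower, against 197 higher and 237 lower under that scaling. piRNAs were depleted by the co-IP, to 1.49% to 2.47% of its summed RPM, against 24.8% to 38.4% in the inputs. In the inputs 30 piRNAs rose and none fell. The piRNA 21ur-5018 rose most, at 47.7, 42.5 and 35.2 RPM, against 11.4, 12.4 and 15.2 RPM (1.61, limma, adjusted p = 2.4e-07), and 21ur-2898 fell most, at 4.28, 4.13 and 6.91 RPM, against 9.71, 22.2 and 22.3 RPM (-1.58, limma, adjusted p = 3.1e-05).

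The last comparison set each co-IP against its input. Over all rows the difference of enrichment was called in 60 of 2516 rows (2.38%), with 20 higher (0.795%) and 40 lower (1.59%) after dcr-1 RNAi. It was called in 12 of the 54 23H-RNA rows, all lower: 8 from the chromosome IV hairpin, 3 from F43E2.6 and 1 from C36A4.14. Of these 12, the 9 rows that are not from F43E2.6 had under 1 RPM in the inputs. There the pseudocount shrinks any difference, so for these 9 the test mostly repeats the co-IP comparison. The count of 60 was unstable: without L4440 co-IP replicate 1 it was 209, and without any 1 of several other libraries it was 16 to 29.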

How the data were processed

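Small RNAs of 16 to 30 nt were sequenced from 3 GFP::RDE-1 co-IPs and 3 inputs for each of dcr-1 RNAi and L4440. The authors counted reads per feature with tinyRNA, per the series' design text, and deposited them as RPM; the kit used for each library (NEBNext or QIAseq), the genome build and versions are not given in the sources used here. Values that the piRNA steps gave as whole reads made up 99.0% to 99.7% in 11 of 12 libraries, but no step could be fitted for L4440 co-IP replicate 2, so no count test was run.

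limma 3.58.1 (R 4.3.3) was fitted with a mean-variance trend to log2(RPM + 1) of the 2516 of 25901 rows whose mean over the 12 libraries reached 10 RPM, all 4 groups together, with Benjamini-Hochberg adjustment over all 2516 and a threshold of 0.05. The fit was tested on simulated data. Sums were compared by an exact two-sided permutation test in Python 3.11.15 with scipy 1.17.1. Same-numbered libraries had correlations of deviations from -0.27 to 0.25, so replicate numbers were not taken as pairs.

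The rows named are those of dcr-1 and rde-1; in each class, up to 3 called rows at each end whose co-IPs did not overlap and the 3 most abundant on L4440; the 3 most abundant of each 23H source; miR-243, miR-789 and Y47H10A.5; the 8 most abundant RDE-1-bound miRNAs; and called members of the RNAi gene and miRNA family lists. Length variants, duplex partners and the arm split were added after values were seen. Members and lists were chosen with earlier results of these data known. Printed sequences are those of the deposited table's rows, and gene positions are from the Ensembl WBcel235 annotation. Alternatives were other pseudocounts, filters, scalings, lists, a replicate block and leaving out each library.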

Additional observations from a re-analysis of the deposited data

Results flagged for a closer look

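Of the 60 rows called by the interaction contrast of limma, 24 belong to the named rows, the tested 23H-RNAs and the called rows of the miRNA families, and only these are given. In them the difference between dcr-1 RNAi and L4440 in the co-IPs departed from that in the inputs (adjusted p under 0.05). The values below are log2 differences of enrichment, dcr-1 RNAi minus L4440. The dcr-1 23H siRNAs had 3.81.

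Among products of the chromosome IV hairpin, named by their first 6 bases, catcat had -3.12, atggct -2.52, tcatcc -2.20, cgatgg -2.01, tggatg -1.95 at 23 nt and -1.64 at 24 nt, atgaag -1.75 and agtgga at 24 nt -1.37. All 8 had a mean under 1 RPM in the inputs, as did the C36A4.14 product, at -1.39, so the inputs add little to these values. The F43E2.6 products had 1.95 to 2.88 RPM in the inputs. There tgccga had -2.03 at 23 nt and -1.74 at 22 nt, and ccgatg at 23 nt had -1.61.

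Among miRNAs, miR-54-5p had 1.65, miR-39-5p 1.25, miR-239a-3p 1.16 and miR-52-3p 1.05, while miR-238-5p had -2.06 and miR-41-3p -1.44. Among piRNAs, 21ur-3119 had 1.36 and 21ur-5018 1.09, while 21ur-2898 had -2.07, 21ur-5591 -1.70 and 21ur-5911 -1.18. The number of rows called by this contrast changed widely with single libraries, as given under the processing.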

How the results depend on the processing

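Each value answering a comparison was set beside its value under each alternative. A count was taken as the same within 1.5 times, and a list median within the SD between libraries. Shares and sums were judged by their sign, and single rows by their sign and call. By these rules 257 values of the main comparisons stayed the same and 40 moved. For the named rows and lists 2643 values stayed the same and 126 moved, while 111 lost their call and 24 gained one. No called single row changed sign. The 36 lower 23H-RNA rows became 78 with no minimum level (median -0.033), 9 at a mean of at least 50 RPM and 82 with the list from the nrfl-1 RNAi co-IPs, which was chosen after seeing the data. The 566 calls between the co-IPs became 280 with a pseudocount of 10, 306 with no minimum, 318 at 50 RPM and 281 with the co-IP libraries alone, and 353 to 727 when each library was left out in turn. The 60 calls for the difference of enrichment became 169 with a pseudocount of 10 and 30 at 50 RPM, and 16 to 209 when each library was left out. The 95 calls between the inputs became 34 with a pseudocount of 0.5, 1282 with 10, 1398 with no minimum, 20 at 50 RPM and 50 under median-of-ratios scaling, and 15 to 262 when each library was left out. The 8 lower RDE-1-bound miRNAs became 14 with the other list (median 0.13), 3 with no minimum, 5 at 50 RPM and 13 under median-of-ratios scaling (median -0.55). The difference of the miRNA share, -1.03 percentage points, was 0.65 with dcr-1 rows left out of the total. That of the ERGO class 26G share, 0.082, ran from -0.0056 to 0.17 when each library was left out, the lowest without L4440 co-IP replicate 1. The cause of these shifts was not tested. With a replicate block 556 rows were called between the co-IPs, 53 for the difference of enrichment, 105 between the inputs and 36 lower 23H-RNA rows, so the block moved no count by over 1.5 times.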
